A study of Mus musculus with 22 samples.

Results

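The expression of 10 genes that mark axon-tract and disease-associated microglia was followed in CD11b+ cells from the brains of neonatal mice. The members were Itgax, Clec7a, Spp1, Gpnmb, Igf1, Lpl, Cst7, Apoe, Trem2 and Tyrobp, taken as a named list from the 56691 genes in the count tables and matched by Ensembl identifier. All 10 were found in both tables and all 10 passed edgeR's filter on low counts in every comparison. The series held 22 libraries from 20 CF-1 wildtype mice in 5 groups of 4 animals. In the HIE (hypoxic-ischemic encephalopathy) groups at P7 and P14, pregnant dams were injected with LPS (50 µg/kg, E18), and their offspring later spent 8 min on P6 in a chamber whose oxygen fell from 21% to 0%. The control groups at P7 and P14 are labelled Control, and the study's methods describe saline and normoxia in place of these exposures. A group labelled Hypoxia was sampled at P14 only, and the labels name no LPS for it. CF-1 is an outbred strain, no group carries an edited allele, and cells from whole brains were enriched on magnetic CD11b beads.

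Animals that share a name prefix are called a litter here. Every group comprised 2 litters of 2 animals, namely N5 and N8 (HIE, P7), P6H63 and P6H55 (control, P7), P4H1 and P6H12 (HIE, P14), P4H4 and P6H8 (control, P14), and P6H7 and P6H9 (Hypoxia, P14). Each litter received 1 treatment, so treatment and litter cannot be told apart within these data. The HIE pups at P7 were all male, whereas the other groups held 2 males and 2 females. The labels of the P7 controls read P8 and P9 in litter P6H63 and P10 and P11 in litter P6H55, although the protocol text and the study's methods give collection at P7. P7 and P14 libraries were deposited as separate batch files, so day and batch cannot be told apart either.

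Microglia are the resident macrophages of the brain. In early postnatal white matter and in the injured or degenerating brain, some of them lower their resting genes and express a shared program of phagocytosis, lysosomal digestion and lipid handling. The surface receptor TREM2, which binds lipids and apolipoproteins, signals through its adaptor TYROBP (DAP12) and is needed for full entry into the disease-associated state. CD11c-positive microglia are a source of IGF1 for the developing white matter.

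Promoter sequences are shown for 4 members that were higher at P7 than at P14 in HIE animals and for Trem2, which was not, since these genes separate the behaviours described below. Each runs from 250 bases before to 50 bases after the annotated start (RefSeq, GRCm38.p6), 5′ to 3′ on the gene's strand. Capitals mark the PU.1 core GAGGAA, the site of a myeloid master regulator, and the AP-1-like pattern TGANTCA, both searched on both strands. In this pattern N is any base, so it is wider than the AP-1 consensus TGA(C/G)TCA. These motifs do not overlap in the sequences shown.

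Itgax (chr7:128129300-128129599, forward strand): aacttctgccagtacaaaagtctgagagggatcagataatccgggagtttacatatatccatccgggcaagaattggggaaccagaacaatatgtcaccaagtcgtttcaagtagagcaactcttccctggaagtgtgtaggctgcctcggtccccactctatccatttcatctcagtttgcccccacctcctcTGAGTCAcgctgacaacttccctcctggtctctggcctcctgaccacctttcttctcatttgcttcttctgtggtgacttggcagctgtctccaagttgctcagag
Clec7a (chr6:129472730-129473029, reverse strand): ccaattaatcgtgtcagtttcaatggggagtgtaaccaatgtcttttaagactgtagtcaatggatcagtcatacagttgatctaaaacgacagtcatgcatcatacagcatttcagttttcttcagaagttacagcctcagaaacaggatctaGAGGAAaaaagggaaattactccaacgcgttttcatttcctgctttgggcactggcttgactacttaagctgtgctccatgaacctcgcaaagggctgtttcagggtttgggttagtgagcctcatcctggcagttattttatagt
Spp1 (chr5:104434861-104435160, forward strand): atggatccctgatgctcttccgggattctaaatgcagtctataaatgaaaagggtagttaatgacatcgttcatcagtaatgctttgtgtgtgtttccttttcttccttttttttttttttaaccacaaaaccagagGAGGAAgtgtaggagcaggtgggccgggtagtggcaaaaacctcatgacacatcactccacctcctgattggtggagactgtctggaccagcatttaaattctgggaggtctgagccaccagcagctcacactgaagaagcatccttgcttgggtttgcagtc
Gpnmb (chr6:49036268-49036567, forward strand): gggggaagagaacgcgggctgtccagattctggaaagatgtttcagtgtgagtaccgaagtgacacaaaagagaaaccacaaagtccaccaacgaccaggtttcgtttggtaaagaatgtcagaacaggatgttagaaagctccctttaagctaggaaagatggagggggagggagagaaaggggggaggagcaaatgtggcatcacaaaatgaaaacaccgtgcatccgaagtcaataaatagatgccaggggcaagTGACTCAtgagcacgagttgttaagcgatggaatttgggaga
Trem2 (chr17:48346151-48346450, forward strand): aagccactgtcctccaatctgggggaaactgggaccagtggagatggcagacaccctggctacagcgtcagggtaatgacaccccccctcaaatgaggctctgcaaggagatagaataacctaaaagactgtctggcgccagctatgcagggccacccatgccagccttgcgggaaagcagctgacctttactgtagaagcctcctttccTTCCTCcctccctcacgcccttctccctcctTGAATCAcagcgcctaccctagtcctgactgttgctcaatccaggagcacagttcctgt

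The promoter table held 8 of the 10 members, without Lpl and Tyrobp. The PU.1 core was found in 5 of these 8 windows (Clec7a, Spp1, Igf1, Apoe and Trem2) and in 28.3% of 32851 windows of the same length. The AP-1-like pattern was found in 5 of 8 (Itgax, Gpnmb, Igf1, Cst7 and Trem2) and in 7.81% of all windows. Only Itgax and Gpnmb matched the consensus, as the middle base was A in Igf1 and Trem2 and T in Cst7. The E-box CACGTG, which MITF and TFE family factors bind, was in none of the 8 and in 7.15% of all windows. Among members higher at P7 than at P14 in HIE animals, Itgax and Gpnmb hold only the AP-1-like pattern. Clec7a and Spp1 hold only the PU.1 core, and Igf1 holds both. Of those that did not pass that test, Cst7 holds only the AP-1-like pattern, Apoe only the PU.1 core and Trem2 both.

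Total counts were 70191541 to 83469037 per animal at P7 and 29751486 to 76166750 at P14, so that 3 counts in an animal equalled 0.0359 to 0.0427 CPM at P7 and 0.0394 to 0.101 CPM at P14. Levels are given as CPM, counts scaled to the size of the library, after TMM scaling over all 20 animals. The resting microglial genes P2ry12, Tmem119 and Cx3cr1 had a mean of 1973 to 2390 CPM in the P7 HIE pups, 1616 and 1833 CPM in the P6H55 controls, 148 and 243 CPM in the P6H63 controls, and 2296 to 3972 CPM at P14. The summed level of 15 homeostatic microglia genes was 1764 to 2680 CPM in the P6H63 controls against 15652 to 17937 CPM in the P6H55 controls and 19894 to 22958 CPM in the P7 HIE pups. In the P6H63 controls the summed level of 10 astrocyte markers was 4242 to 5264 CPM (1480 to 2105 in P6H55, 1390 to 1853 in HIE), that of 9 pericyte and fibroblast markers was 3109 to 3147 CPM (1127 in both P6H55 pups, 913 to 1137 in HIE), and that of 10 neuron markers was 524 to 749 CPM (214 to 308 in P6H55, 230 to 337 in HIE), with every marker of these lists above 0 in both litters. The 10 monocyte and neutrophil markers, which bear on the labels' term monocytes, summed to 17.9 to 377 CPM over all animals. Because the P6H63 controls stood apart in this way, P7 control results are also given by control litter. In bulk samples, fewer cells of a type and less RNA per cell cannot be told apart.

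**Figure D1:**
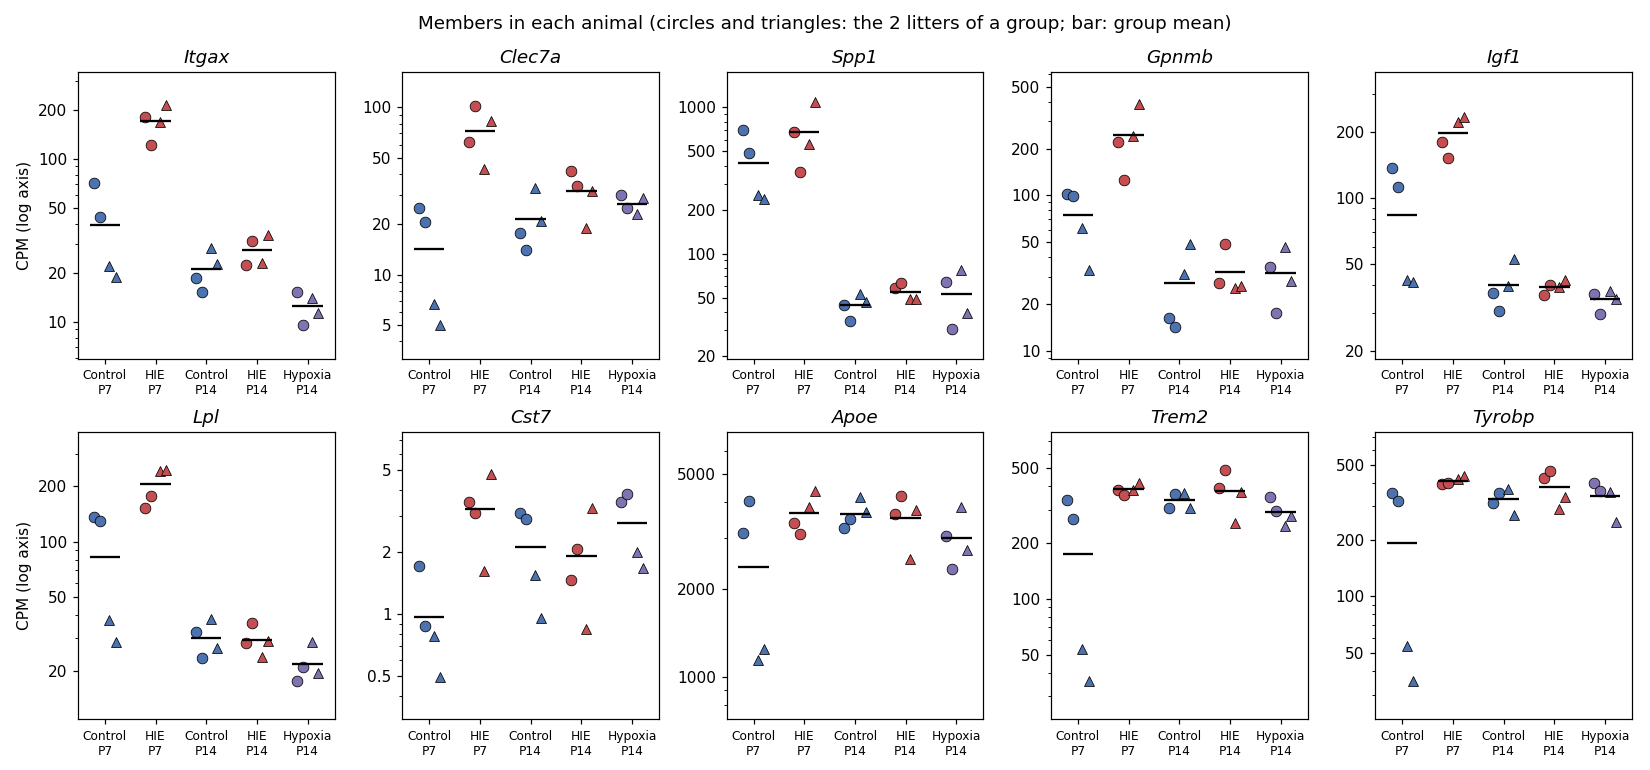
CPM of each member (log axes) by group, with 1 point per animal, circles and triangles for the 2 litters of a group and bars for group means. Itgax lies between 122 and 213 CPM in P7 HIE pups and at or below 71.1 CPM in every other animal, whereas Trem2 and Tyrobp are low only in the 2 P6H63 controls.

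Within each group the members spanned a wide range of levels. Per kb of canonical transcript, Apoe was highest in all 5 groups, followed by Tyrobp. In HIE animals at P14 the levels were 1615 ± 316 CPM per kb for Apoe, 627 ± 132 for Tyrobp and 348 ± 88.4 for Trem2 (SD, n = 4). Clec7a followed at 44.6 ± 13.3 and Spp1 at 24.6 ± 3.12 CPM per kb, with overlapping ranges. Gpnmb (8.33 ± 2.94), Lpl (7.13 ± 1.28), Itgax (6.76 ± 1.43) and Igf1 (5.56 ± 0.362 CPM per kb) came next, each overlapping its neighbour in this order, while the ranges of Gpnmb (6.65 to 12.7) and Igf1 (5.09 to 5.96 CPM per kb) did not overlap. Cst7 was lowest at 1.84 ± 0.99 CPM per kb. In P7 HIE pups, Spp1 reached 303 ± 138 CPM per kb and overlapped Trem2 at 355 ± 22.6, and Cst7 was again lowest at 3.12 ± 1.25.

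The first comparison asked whether the program differed between HIE and control pups at P7. Itgax, Clec7a, Gpnmb and Cst7 had 3.25- to 5-fold higher fitted means in HIE pups, and Igf1, Lpl, Trem2 and Tyrobp had 2.13- to 2.43-fold higher means. With all 4 controls, edgeR's quasi-likelihood test called 0 of 10 members, against 0.0666% of 22517 genes called. Without adjustment, 6 of the 10 and 27.3% of genes had p under 0.05. With sex as a covariate, where every HIE pup was male, these were 4 of the 10 and 8.59% of genes, with 0 members called. In every HIE pup 7 of the 10 members (all but Spp1, Cst7 and Apoe) were above every control pup, a separation seen in 9.22% of genes tested. The resting genes P2ry12, Tmem119 and Cx3cr1 had 2.16-, 2.24- and 2.27-fold higher fitted means in HIE pups (adjusted p = 0.278 to 0.356). P2ry12 (2006 to 2659 CPM in HIE pups, at most 1950 in controls) and Cx3cr1 (3493 to 3936, at most 3117) separated in the same way. Tmem119 overlapped, at 390 to 578 CPM in HIE pups and 44.5 to 430 CPM in controls.

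Itgax encodes CD11c, an integrin chain of dendritic cells and of this microglial state. Its level was 180 and 122 CPM in the N5 pups, 169 and 213 CPM in the N8 pups, 71.1 and 44.2 CPM in the P6H55 controls and 21.9 and 18.8 CPM in the P6H63 controls. All HIE pups were above all controls, and within the controls litter P6H55 was above litter P6H63. The log2 fold change was 2.12 ± 0.43 (SE, adjusted p = 0.15). Against the P6H55 controls alone it was 1.56 ± 0.26 (adjusted p = 0.128) and against the P6H63 controls alone 3.10 ± 0.23 (adjusted p = 2.98e-05).

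Clec7a encodes dectin-1, a receptor for fungal glucans. Its level was 61.9 and 102 CPM in the N5 pups, 42.6 and 83.2 CPM in the N8 pups, 25.0 and 20.6 CPM in the P6H55 controls and 6.66 and 5.03 CPM in the P6H63 controls. The groups did not overlap. The log2 fold change was 2.32 ± 0.56 (adjusted p = 0.15), with 1.66 ± 0.33 against P6H55 (adjusted p = 0.163) and 3.66 ± 0.39 against P6H63 (adjusted p = 0.000144).

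Gpnmb, a lysosome-associated glycoprotein, was at 221 and 126 CPM in the N5 pups, 239 and 389 CPM in the N8 pups, 102 and 99.7 CPM in the P6H55 controls and 61.7 and 33.2 CPM in the P6H63 controls. The lowest HIE pup was just above the highest control. Its log2 fold change was 1.70 ± 0.44 (adjusted p = 0.15). Cst7, which encodes cystatin F, an inhibitor of lysosomal cysteine proteases, was far lower, at 1.61 to 4.76 CPM in HIE pups and 0.497 to 1.71 CPM in controls. The ranges overlapped, and its log2 fold change was 1.73 ± 0.45 (adjusted p = 0.15). Against P6H55 alone, Gpnmb was at 1.26 ± 0.39 and Cst7 at 1.31 ± 0.46, and against P6H63 alone at 2.39 ± 0.47 and 2.36 ± 0.46.

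The secreted members behaved unequally. Igf1, a growth factor for neurons and oligodendrocytes, was at 181 and 152 CPM in the N5 pups, 223 and 236 CPM in the N8 pups, 138 and 113 CPM in the P6H55 controls and 42.4 and 41.3 CPM in the P6H63 controls. Its log2 fold change was 1.23 ± 0.42 (adjusted p = 0.151), with 0.65 ± 0.18 against P6H55 alone and 2.27 ± 0.19 against P6H63 alone. Spp1, which encodes osteopontin, was at 684 and 363 CPM in the N5 pups, 562 and 1092 CPM in the N8 pups, 699 and 485 CPM in the P6H55 controls and 253 and 238 CPM in the P6H63 controls. The HIE pups overlapped litter P6H55 and not litter P6H63, and the log2 fold change was 0.68 ± 0.44 (adjusted p = 0.317), with 0.18 ± 0.38 against P6H55 alone and 1.49 ± 0.40 against P6H63 alone.

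Among the lipid genes, Lpl, which encodes lipoprotein lipase, was at 153 to 245 CPM in HIE pups, 136 and 130 CPM in the P6H55 controls and 38.0 and 28.7 CPM in the P6H63 controls (log2 fold change 1.28 ± 0.52, adjusted p = 0.167). Apoe, the main lipid carrier of the brain, was at 3104 to 4350 CPM in HIE pups, 3134 and 4031 CPM in the P6H55 controls and 1142 and 1245 CPM in the P6H63 controls. Its range in HIE pups held both P6H55 values, and the log2 fold change was 0.60 ± 0.43 (adjusted p = 0.355). Against P6H55 alone, Lpl was at 0.61 ± 0.20 and Apoe at 0.02 ± 0.16, and against P6H63 alone at 2.64 ± 0.24 and 1.65 ± 0.16.

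Trem2 was at 360 to 419 CPM in HIE pups, 338 and 269 CPM in the P6H55 controls and 53.5 and 36.0 CPM in the P6H63 controls, with a log2 fold change of 1.13 ± 0.67 (adjusted p = 0.276). Tyrobp was at 394 to 434 CPM in HIE pups, 355 and 322 CPM in the P6H55 controls and 54.2 and 35.6 CPM in the P6H63 controls (1.09 ± 0.69, adjusted p = 0.307). The receptor and its adaptor thus lay close to the HIE pups in one control litter and far below them in the other. Against P6H55 alone their log2 fold changes were 0.34 ± 0.11 and 0.28 ± 0.08, and against P6H63 alone 3.14 ± 0.18 and 3.23 ± 0.18.

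Which controls were used decided the number of members called. Against the P6H63 controls, all 10 members were higher in HIE, where 27.7% of genes tested were called higher. Against the P6H55 controls, 0 of 10 were called, where 0.112% of genes were called in either direction, while 8 of 10 members and 16.5% of genes had an unadjusted p under 0.05. With all 4 controls, DESeq2 called 5 members higher (Itgax, Clec7a, Gpnmb, Cst7 and Igf1) and 4.55% of genes higher, and the quasi-likelihood test called these 5 members and 8.42% of genes higher when P6H55-7 was left out.

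**Figure D2:**
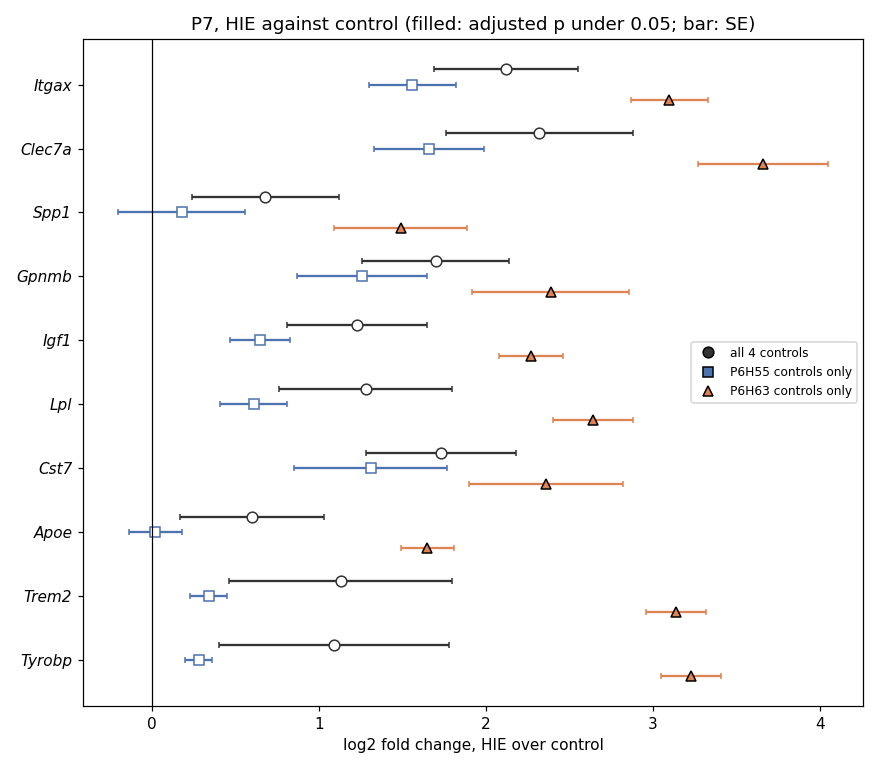
Log2 fold change of each member between P7 HIE and control pups with its SE (x axis), using all 4 controls, the P6H55 controls or the P6H63 controls, with filled symbols for an adjusted p under 0.05. Every member is further right against P6H63 than against P6H55, where Apoe is at 0.02 and Itgax at 1.56.

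The members were next set against the resting microglial genes of the same animal. Itgax equalled 5.11% to 10.4% of the mean of P2ry12, Tmem119 and Cx3cr1 in P7 HIE pups, 3.88% and 2.74% in the P6H55 controls and 9.04% and 12.7% in the P6H63 controls. The P6H63 controls, lowest in CPM, were within or above the HIE range on this scale. Spp1 equalled 15.2% to 53.5% in HIE pups, 38.1% and 30.0% in P6H55, and 104% and 160% in P6H63. Trem2 equalled 15.1% to 20.5% in HIE pups, 18.5% and 16.7% in P6H55, and 22.1% and 24.2% in P6H63, so that its spread over the 8 pups was far narrower than in CPM.

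On this scale the quasi-likelihood test called 0 of 10 members between HIE and control pups, and 0 had an unadjusted p under 0.05 (85.5% of genes), whereas 83.6% of all genes were called, and the median log2 difference was -0.38 over the members and -2.71 over all genes tested. The scale itself moved with the P6H63 controls, since their 3 reference genes were low. The largest positive difference was 0.59 ± 0.88 for Clec7a (adjusted p = 0.519) and the largest negative was -1.38 ± 0.82 for Spp1 (adjusted p = 0.11). Against P6H55 alone, the median log2 difference over all genes was -0.34, Clec7a was at 1.33 ± 0.26 and Itgax at 1.28 ± 0.26 (both adjusted p = 0.0815), and Trem2 was at 0.04 ± 0.14. Against P6H63 alone, 6 members (Apoe, Cst7, Gpnmb, Igf1, Lpl and Spp1) were lower in HIE pups, in a fit that called 97.1% of genes lower and whose median over all genes was -3.58.

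**Figure D3:**
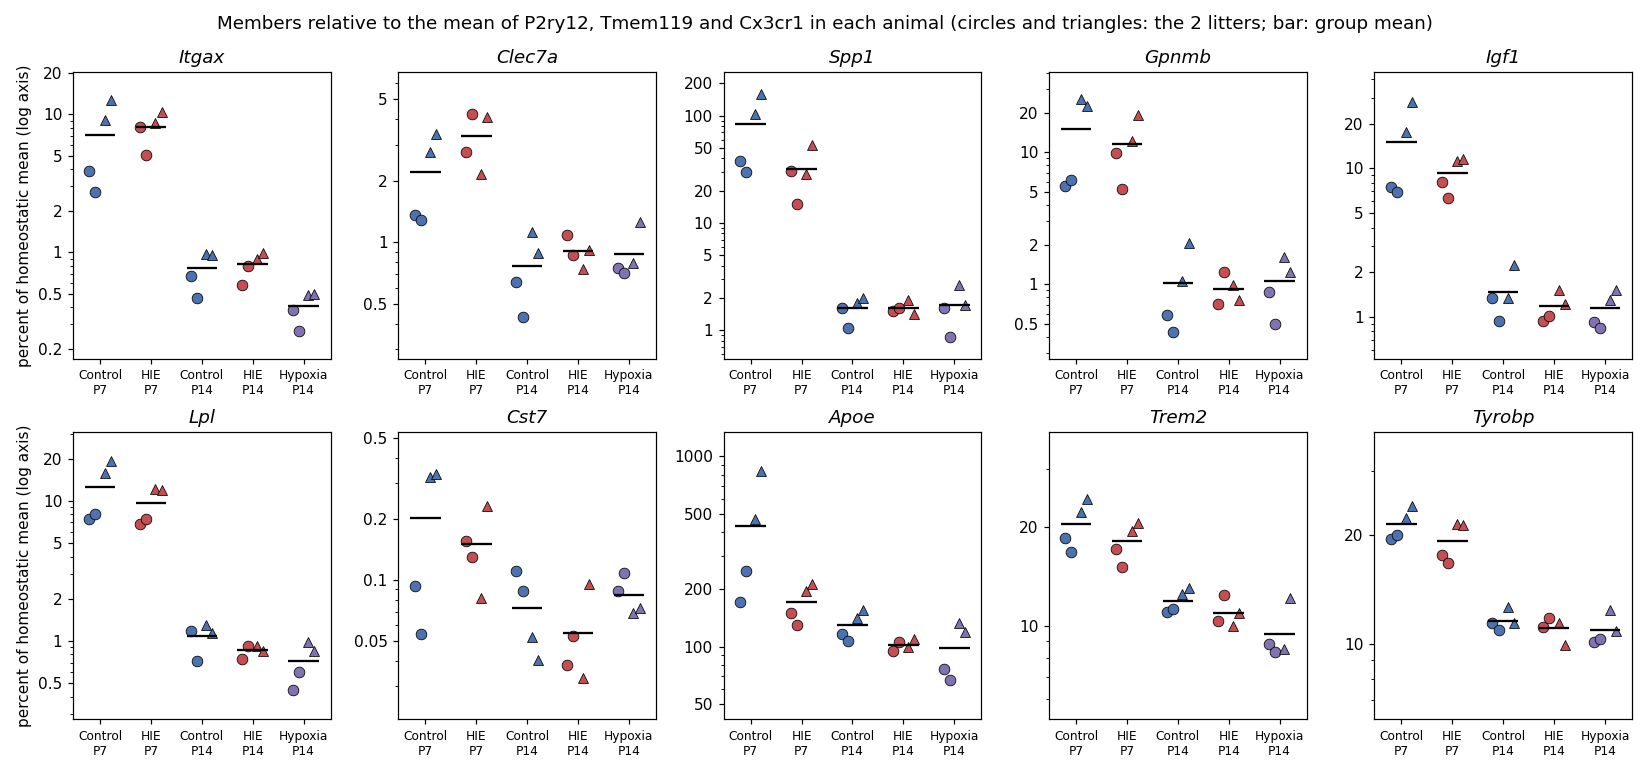
Level of each member as a percent of the mean CPM of P2ry12, Tmem119 and Cx3cr1 in the same animal (log axes), by group and litter, with bars for group means. At P7, Itgax equals 2.74% to 12.7% and at P14 at most 0.993% of that mean, and at P7 the P6H63 controls are as high as or higher than the P6H55 controls for every member.

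The next comparison was between days. In HIE animals, 6 of 10 members were higher at P7 than at P14, where 23.2% of genes tested were higher, and these were Spp1, Gpnmb, Lpl, Itgax, Igf1 and Clec7a. The same 6 were above every P14 HIE animal in every P7 HIE pup, which held for 24% of genes. The median log2 difference was 1.75 over the members and -0.02 over all genes.

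Spp1 had the largest difference of the 10. It was at 363 to 1092 CPM in P7 HIE pups and at 58.4, 63, 49.2 and 48.9 CPM in the P14 HIE animals, a 12.2-fold difference (log2 3.60 ± 0.30, adjusted p = 1.1e-05). Gpnmb was 7.56-fold higher at P7 (2.92 ± 0.33, adjusted p = 8.79e-05) and Lpl 6.88-fold higher (2.78 ± 0.18, adjusted p = 2.32e-06). Itgax stood at 22.3, 31.4, 23.1 and 34.0 CPM in the P14 HIE animals, 6.10-fold below P7 (2.61 ± 0.19, adjusted p = 4.67e-06). Igf1 was at 36.0 to 42.2 CPM at P14 and 4.97-fold higher at P7 (2.31 ± 0.13, adjusted p = 1.21e-06). Clec7a was at 18.9 to 41.6 CPM at P14 and 2.28-fold higher at P7 (1.19 ± 0.28, adjusted p = 0.00604). With sex as a covariate, where every P7 HIE pup was male, Clec7a was at 0.98 ± 0.35 (adjusted p = 0.0571).

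The other 4 members did not pass the test between days in HIE animals. Trem2 differed by a log2 of 0.02 ± 0.16, Apoe by 0.04 ± 0.17 and Tyrobp by 0.10 ± 0.14. Their P14 HIE levels were 256 to 490 CPM for Trem2, 2551 to 4177 CPM for Apoe and 291 to 466 CPM for Tyrobp, which overlapped their P7 HIE levels. Cst7 differed by 0.73 ± 0.41 (adjusted p = 0.168). Relative to the 3 resting genes, all 10 members were higher at P7 in HIE animals, where 52.8% of genes were higher and the median of all genes was 0.64. On that scale Spp1 differed by 4.30 ± 0.31 and Trem2 by 0.72 ± 0.14, the latter close to the median of all genes. Between these days the reference itself moved, as Tmem119 was lower at P7 by -1.74 ± 0.18 and P2ry12 by -0.95 ± 0.18 (adjusted p = 5.01e-05 and 0.00163).

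In control animals, 1 of 10 members was higher at P7, where 17.4% of genes were higher and 20.2% were above every P14 control in every P7 control. This was Spp1, at 699, 485, 253 and 238 CPM at P7 and 45.0, 34.6, 53.3 and 47.2 CPM at P14, an 8.96-fold difference (log2 3.16 ± 0.38, adjusted p = 0.000995). It held in each control litter, with 3.67 ± 0.19 for P6H55 and 2.44 ± 0.16 for P6H63. Using P6H55 alone, 5 members were higher at P7 (Spp1, Lpl, Gpnmb, Igf1 and Itgax), where 16.2% of genes were higher. Lpl then differed by 2.09 ± 0.18, Gpnmb by 1.84 ± 0.42, Igf1 by 1.6 ± 0.19 and Itgax by 1.40 ± 0.26, while Clec7a was at 0.05 ± 0.30 (adjusted p = 0.919). Using P6H63 alone, Trem2, Tyrobp, Clec7a, Cst7 and Apoe were lower at P7 and Spp1 was higher, in a fit that called 27.9% of genes lower and 31.1% higher. Relative to the resting genes, 6 members were higher at P7 in controls (Spp1, Gpnmb, Lpl, Igf1, Itgax and Apoe), where 78.2% of genes were higher and the median of all genes was 3.11, against a members' median of 2.47. On this scale P6H55 alone gave 8 members higher (51.1% of genes), a median of 0.71 over all genes and 1.45 over the members, and P6H63 alone gave 10 (93.5% of genes), with medians of 3.96 and 3.08, so that the order of these medians depended on the control litter. The call of Apoe (1.73 ± 0.82, adjusted p = 0.0486) was lost with 15 homeostatic genes as the scale (adjusted p = 0.0549). It was also lost when any of the 4 P14 controls or either P6H63 control was left out (adjusted p = 0.0776 to 0.154). Apoe equalled 471% and 838% of the mean of the resting genes in the P6H63 controls and 171% and 249% in P6H55. Astrocyte markers were also higher in P6H63, and their part in the Apoe ratio was not tested. Scaling by library size alone, which moved the median of all genes from 0.02 to 0.23, changed the split of genes called between control days from 3873 higher and 3490 lower to 5454 higher and 2612 lower, and 4 members were then called higher (24.4% of genes).

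**Figure D4:**
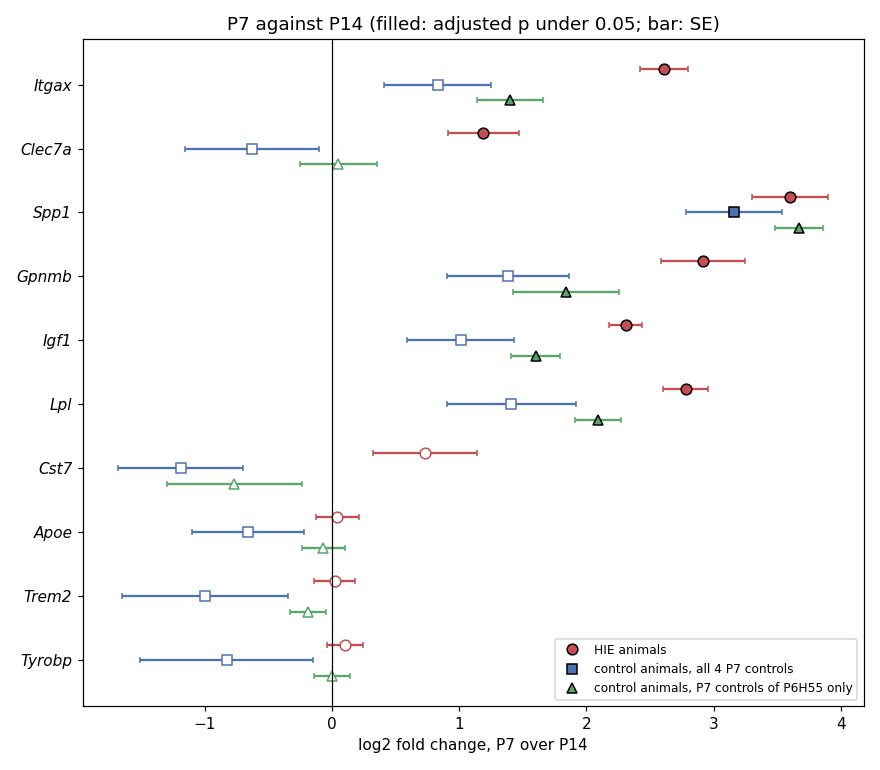
Log2 fold change of each member between P7 and P14 with its SE (x axis), for HIE animals, for all control animals and for controls with only litter P6H55 at P7, with filled symbols for an adjusted p under 0.05. Spp1 lies between 3.16 and 3.67 in all 3 fits, and Clec7a is at 1.19 in HIE animals and at -0.63 and 0.05 in controls.

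Whether the difference between HIE and control pups changed between days was tested as an interaction. The quasi-likelihood test called 0 of 10 members, against 0.00405% of 24693 genes, and 6 members and 13.9% of genes had an unadjusted p under 0.05. The estimates were positive for all 10 members, with 1.75 ± 0.49 for Itgax (unadjusted p = 0.00271, adjusted p = 0.146), 1.78 ± 0.64 for Clec7a, 1.89 ± 0.68 for Cst7 and 0.98 ± 0.71 for Trem2. With only the P6H55 controls at P7, the Itgax estimate was 1.19 ± 0.34 (adjusted p = 0.35), and with only the P6H63 controls all 10 members were called with a positive estimate, as were 14% of genes.

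At P14, between HIE and control animals, the quasi-likelihood test called 0 of 10 members, against 0.00478% of 20934 genes, and no member was above every control in every HIE animal (2.82% of genes). The unadjusted p was above 0.05 for all 10 members and under 0.05 for 9.87% of genes, and DESeq2 called none. Itgax was at 18.6, 15.2, 28.4 and 22.5 CPM in controls and at 22.3, 31.4, 23.1 and 34.0 CPM in HIE animals, with overlapping ranges and a log2 fold change of 0.36 ± 0.20 (adjusted p = 0.641). Clec7a was at 14.1 to 32.9 CPM in controls and 18.9 to 41.6 CPM in HIE animals (0.53 ± 0.28, adjusted p = 0.608). Spp1 was at 34.6 to 53.3 CPM and 48.9 to 63 CPM (0.26 ± 0.14, adjusted p = 0.612). Relative to the resting genes, 0 members were called by the quasi-likelihood test (1, Apoe, and 11% of genes at an unadjusted p under 0.05), against 0.00955% of genes, and the members' median of -0.14 was near the -0.23 of all genes.

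In the Hypoxia group, Itgax was at 15.2, 9.50, 14.1 and 11.4 CPM, below all 4 HIE animals, and the highest Hypoxia animal equalled the lowest control at 15.2 CPM. No member was above every Hypoxia animal in every control (2.54% of genes). The log2 fold change against control was -0.78 ± 0.21 (unadjusted p = 0.00467, adjusted p = 0.462), and 0 of 10 members were called, against 0.00955% of genes. Lpl was at 17.6 to 28.6 CPM in the Hypoxia group and 23.4 to 38.3 CPM in controls (-0.50 ± 0.20, adjusted p = 0.501). Trem2 (-0.24 ± 0.12) and Apoe (-0.31 ± 0.18) had adjusted p of 0.545 and 0.597. With all 4 controls, Itgax and Lpl were the members with an unadjusted p under 0.05 (9.53% of genes), and DESeq2 called none of the 10. With P6H animals only, which set both Hypoxia litters against litter P6H8 alone, 0 members were called. In that fit 4 members and 5.45% of genes had an unadjusted p under 0.05. These members were Itgax (-1.05 ± 0.21), Lpl (-0.60 ± 0.23), Igf1 (-0.44 ± 0.16) and Cst7, which was higher in the Hypoxia group (1.10 ± 0.44). Relative to the resting genes, the quasi-likelihood test called 0 members in this comparison (1, Itgax, and 4.09% of genes at an unadjusted p under 0.05), against 0.00955% of genes.

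The comparisons of HIE and of Hypoxia animals with controls at P14 share the same 4 control animals. The HIE and Hypoxia groups were also compared directly, a comparison added after the values had been seen. Itgax was the only member for which every HIE animal was above every Hypoxia animal, a separation found in 1.54% of genes, and was 2.18-fold higher in HIE animals (log2 1.13 ± 0.19, unadjusted p = 0.000111, adjusted p = 0.387). The quasi-likelihood test called 0 of 10 members, against 0.00955% of genes, with 2 members (Itgax and Lpl) and 4.53% of genes at an unadjusted p under 0.05, and DESeq2 called Itgax alone (adjusted p = 0.000105), against 0.0716% of genes. Within the P6H litters, the log2 fold change of Itgax was 1.17 ± 0.22 (adjusted p = 0.735). That fit set the 2 HIE animals of litter P6H12 alone against both Hypoxia litters. Lpl differed by 0.41 ± 0.17 (adjusted p = 0.999). As a percent of the resting genes, Itgax was 0.583% to 0.993% in HIE animals and 0.27% to 0.495% in the Hypoxia group.

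Genes that act with the members were described by hand-written lists. Between days in HIE animals, 17 of 24 further disease-associated microglia genes were higher at P7 and 1 was lower, including the lysosomal protease Ctsb (1.6 ± 0.18), the ferritin heavy chain Fth1 (0.53 ± 0.16) and the muscle-type cytochrome oxidase subunit Cox6a2, which was lower (-1.51 ± 0.53). Of 20 further axon-tract microglia genes, 14 were higher and 0 lower, among them the lysosomal membrane protein Lamp1 (0.71 ± 0.13) and Gas6, a ligand of the AXL and MERTK receptors (0.87 ± 0.13). These lists share Lgals3, Fabp5 and Ctsl. Their medians of 0.74 and 0.85 compare with -0.02 over all genes, of which 22.8% were lower. In controls, 6 of 24 and 11 of 20 were higher at P7 and 0 were lower, with medians of 0.16 and 0.93 against 0.02 over all genes, of which 15.6% were lower. Vim (1.5 ± 0.36) and Cd93 (1.22 ± 0.27), which were higher in the controls, are also expressed by vascular and other non-microglial cells.

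Of 16 TREM2 signalling genes, 3 were higher and 1 lower at P7 in HIE animals, including the sialic acid receptor Cd33 (0.57 ± 0.11), the kinase Btk (0.33 ± 0.10) and the TREM2 sheddase gene Adam17 (-0.44 ± 0.09), and 1 was lower in controls. Of 20 lipid efflux and LXR genes, 10 were higher and 1 lower in HIE animals, with the cholesterol exporter Abca1 at 0.54 ± 0.13, the cholesterol acyltransferase Soat1 at 0.45 ± 0.09 and the cholesterol transporter Npc1 at -0.33 ± 0.09. In controls 4 of 19 were higher, with Srebf1 at 0.84 ± 0.17. For these and the following lists, 23.2% of all genes were higher and 22.8% lower at P7 in HIE animals. In controls these shares were 17.4% and 15.6%. The medians in HIE animals were -0.06 for TREM2 signalling and 0.4 for the lipid list, against -0.02 over all genes. In controls they were -0.84 and 0.16, against 0.02.

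The ligand partners were mixed. In HIE animals 5 of 12 IGF axis genes were higher at P7 and 2 lower, with the binding protein Igfbp4 at 1.35 ± 0.12 and Igfbp3 at -1.75 ± 0.21, and in controls 6 were higher, with Igf2 at 2.36 ± 0.36. Of 12 genes listed around osteopontin and CD11c (integrin chains, Cd44 and Icam1), 6 were higher and 5 lower in HIE animals (Icam1 0.79 ± 0.15, Itgam -0.84 ± 0.14). In controls 3 genes of this list were higher and 2 lower. The medians in HIE animals were 0.04 for the IGF axis and 0.2 for the osteopontin and CD11c list, against -0.02 over all genes. In controls they were 0.91 and -0.41, against 0.02. Of 14 transcriptional regulators of the state, 10 were higher and 1 lower in HIE animals, with Spi1, which encodes PU.1, at 0.99 ± 0.15, and 1 (Bhlhe40, 1.45 ± 0.30) was higher in controls. Homeostatic genes went the other way, with 10 of 15 lower and 1 higher in HIE animals (Csf1r -0.47 ± 0.16, Sall1 0.43 ± 0.13) and 3 lower in controls.

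Markers of other cells also differed between days. In HIE animals 5 of 9 border macrophage markers were higher at P7 and 0 lower, among them the mannose receptor gene Mrc1 (0.65 ± 0.17). Lower at P7 were 9 of 10 oligodendrocyte lineage markers, 6 of 8 endothelial, 5 of 8 choroid plexus, 3 of 10 monocyte and neutrophil and 2 of 7 dendritic and lymphocyte markers, with 0 higher in each. Astrocyte and neuron markers had 2 higher and 3 lower of 10 each, and pericyte and fibroblast markers 1 higher and 2 lower of 9. In controls, 6 of 9 pericyte and fibroblast, 3 of 10 astrocyte and 3 of 8 choroid plexus markers were higher and 0 lower, 2 of 8 endothelial markers were higher and 1 lower, and 6 oligodendrocyte, 4 neuron, 2 dendritic and lymphocyte and 1 monocyte and neutrophil markers were lower with 0 higher. Their part in the members' differences between days was not tested.

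In the comparisons of treatments, the quasi-likelihood test on the CPM scale called 0 genes of any of these lists at P7 or at P14. At P14 an unadjusted p under 0.05 was counted in both directions. HIE against control gave it for 10 of 10 neuron and 7 of 9 pericyte and fibroblast markers (9.87% of genes). Hypoxia against control gave it for 7 of 10 monocyte and neutrophil, 5 of 10 neuron and 4 of 8 endothelial markers (9.53%). HIE against Hypoxia gave it for 8 of 24 further disease-associated genes and 6 of 8 choroid plexus markers (4.53%). In each comparison the other lists held lower shares. At P7 an unadjusted p under 0.05 was found for 27.3% of all genes, counting both directions. These included 11 of 24 further disease-associated, 8 of 20 further axon-tract, 11 of 19 lipid and 10 of 12 IGF axis genes. Others were 3 of 12 osteopontin and CD11c, 5 of 14 regulator, 2 of 16 TREM2 signalling and 1 of 15 homeostatic genes. Markers of other cells gave 9 of 10 astrocyte, 8 of 8 endothelial, 8 of 9 pericyte and fibroblast and 8 of 8 choroid plexus. Oligodendrocyte lineage markers gave 3 of 10, neuron markers 1 of 10 and border macrophage markers 0 of 9. Monocyte and neutrophil markers gave 1 of 10 and dendritic and lymphocyte markers 1 of 7. Relative to the resting genes, where 83.6% of all genes were called, 9 of 24 disease-associated, 11 of 20 axon-tract, 8 of 19 lipid, 12 of 12 IGF axis and 2 of 16 TREM2 signalling genes were lower in HIE pups and 0 were higher. The list medians at P7 were 0.88 for disease-associated genes, 1.00 for TREM2 signalling, 0.91 for the regulators and 1.11 for homeostatic genes, against -0.08 over all genes. Further axon-tract genes were at 0.32, lipid genes at 0.56, osteopontin and CD11c genes at 0.8 and border macrophage markers at 0.89. The IGF axis was at -1.17, and astrocyte, endothelial, fibroblast and choroid plexus markers were between -0.95 and -1.46. Monocyte and neutrophil markers were at 0.3, dendritic and lymphocyte at -0.08, oligodendrocyte lineage at -0.21 and neuron markers at -0.7. Choroid plexus markers summed to 1351 to 2434 CPM in HIE pups, 4265 to 4793 in P6H55 and 3871 to 9968 in P6H63. The part of these markers, and of the marker levels of the P6H63 controls given above, in the list medians was not tested.

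Over the 12 P14 animals, the members' mean z-score of log2 CPM was lowest in a Hypoxia animal (-0.95) and highest in an HIE animal (0.79), and the groups were interleaved. The pairs of members with the highest correlation were Spp1 with Gpnmb (r = 0.77) and Lpl with Apoe (r = 0.76), and the lowest was Igf1 with Cst7 (r = -0.58). The 10 genes whose log2 CPM was most like the members' mean z-score, out of 16531 compared, were Pld3, Slamf9, Hyou1, Slc39a7, Npc2, Psap, Ctsz, Tmem222, Irf2bp1 and Trip10, with r from 0.94 to 0.849. Pld3, Npc2, Psap and Ctsz encode lysosomal or endolysosomal proteins. These correlations share libraries, litters and scaling, and are descriptions over 12 points.

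The members lie on 7 chromosomes (GRCm39) and are protein-coding. Itgax (chr7:127728668-127749829), Tyrobp (chr7:30113170-30117010) and Apoe (chr7:19430034-19434947) are on chromosome 7, and Clec7a (chr6:129438554-129449742) and Gpnmb (chr6:49013426-49047863) on chromosome 6. Spp1 (chr5:104582165-104589235), Igf1 (chr10:87693642-87772904), Lpl (chr8:69284603-69360100), Cst7 (chr2:150412284-150420864) and Trem2 (chr17:48653429-48661175) are each alone on theirs. Spp1 overlaps Gm42793 on the same strand, which reached at most 4.93 CPM. Gpnmb and Igf1 overlap Gm56981 and Igf1os on the opposite strand, which reached at most 0.148 and 0.398 CPM. Reads in these overlaps may have been divided between the genes.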

How the data were processed

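RNA was measured in CD11b+ bead-enriched brain cells. The authors prepared stranded total RNA libraries after ribosomal RNA removal, mapped them to GRCm39 with Sentieon's STAR and deposited RSEM expected counts per gene without scaling (84.2% to 88.0% whole values per library). The expected counts were rounded here, after summing the 2 libraries of each of 2 P14 HIE animals. The annotation release is not given in the sources used here. Of 56691 identifiers, 56017 matched GENCODE M39 and 674 did not. RSEM's strand setting is not given either.

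Groups came from the sample labels. The members and lists were chosen with earlier results of these data known, and the lists were written by hand. Members were named in every comparison, and list examples were the 2 called genes of highest mean CPM in each direction, of which some are not reported here. The main test was edgeR 4.0.16's quasi-likelihood test (R 4.3.3, TMM, default filter, Benjamini-Hochberg, threshold 0.05). SE was derived from the fold change and its F statistic. The ratio test used the mean of P2ry12, Tmem119 and Cx3cr1 as library size. DESeq2 1.42.0 was an alternative. The HIE against Hypoxia comparison, the interaction, the P6H-only fits and the ratio fits by control litter were added after seeing the data. Fits were tested on simulated counts with a fixed spread and no litter effect, which cannot show how they behave where litters differ. Replicates are separate animals, 2 to a litter, and litter was not a term in the fits. Likeness used genes of at least 1 CPM and log2 CPM with a prior count of 2. At the depth of each animal 3 counts equal 0.0359 to 0.101 CPM, and this floor covers counting error only.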

Additional observations from a re-analysis of the deposited data

Results flagged for a closer look

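Of 100 group tests of the members' levels and ratios, 3 held an animal far from the other 3 of its group (by Dixon's gap over range), and chance gives about 1 in 20. Gpnmb was at 48.7 CPM in HIE P14 replicate 2 of litter P4H1 and at 25.4, 26.1 and 27.3 CPM in the other HIE animals of that day. This animal's value is the sum of 2 libraries. In Hypoxia P14 replicate 3 of litter P6H9, Clec7a equalled 1.25% of the mean of the 3 resting genes, against 0.708% to 0.794% in the others, and Trem2 equalled 12.1%, against 8.33% to 8.81%. The mean of the 3 resting genes was 2296 CPM in this animal, the lowest of the 12 P14 animals, while its Clec7a and Trem2 levels in CPM were within the group's range.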

How the results depend on the processing

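The number of members called between P7 HIE and control pups was 0 and became 5 with DESeq2, 10 with the P6H63 controls alone, and 0 to 5 when leaving out each animal (5 without P6H55-7). Relative to resting genes it was 0 and became 6 with P6H63 alone and 0 to 2 when leaving out each animal (2, Apoe and Spp1, without either P6H55 pup). Between control days it was 1 and became 4 with DESeq2 or library size only, 2 with TMM over all 20 animals or no filter, 5 with P6H55, 6 with P6H63, and 1 to 4 when leaving out each animal (4 without P6H63-8, and 2 without P6H63-7, P6H55-7 or P6H8-7M). Relative to resting genes it was 6 and became 10 with P6H63, 8 with P6H55, 5 with 15 homeostatic genes and 5 to 6 when leaving out each animal (5 without any P14 control or either P6H63 pup). The interaction became 10 with P6H63, and HIE against Hypoxia became 1 with DESeq2.

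Directions turned as follows. Between control days, Clec7a was 0.05 with P6H55 and Itgax -0.06 with P6H63. Between HIE days with sex as covariate, Apoe was -0.01 and Trem2 0.0, and leaving out each animal gave -0.08 to 0.13 for Apoe, -0.14 to 0.16 for Trem2 and -0.01 to 0.21 for Tyrobp. For P7 HIE against control relative to resting genes, P6H55 alone gave 1.02 for Cst7, 0.98 for Gpnmb, 0.36 for Igf1, 0.32 for Lpl and 0.04 for Trem2, and P6H63 alone gave -0.43 for Itgax, while leaving out each animal gave -0.71 to 0.03 for Gpnmb and -0.09 to 0.62 for Itgax. The cause was not tested.

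All genes called at P7 numbered 15, and 3024 with DESeq2, 26 with P6H55, 13904 with P6H63 and 5588 without P6H55-7, against 10 to 14 without any other animal (18816, and 18 with P6H55 and 7868 to 21129 when leaving out each animal, relative to resting genes). Between control days they numbered 7363, and 13390 with P6H63 and 4855 to 8620 when leaving out each animal (4855 without P6H8-8F, 4878 without P6H8-7M). For the interaction they numbered 1, and 7771 with P6H63 and 0 with P6H55. At P14, leaving out each animal gave 0 to 7 genes in any comparison on the CPM scale, of which 6 for HIE against control and 7 for Hypoxia against control without P6H8-7M and 7 for the latter without P6H9-14M. HIE against control gave 1, and 490 with DESeq2, 3 without filter, 2 with library size and 0 in a fit of 3 groups. It also gave 2 with the start of the animal name (P4H or P6H, not the litter) as a block. Hypoxia against control gave 2, and 164 with DESeq2, 1 with sex as covariate and 0 in a fit of 3 groups or with P6H animals. HIE against Hypoxia gave 2, and 15 with DESeq2, 5 without filter, 1 with sex as covariate and 0 in a fit of 3 groups.

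No paired analysis was possible because replicate numbers are accession order and each litter received 1 treatment. Of the values for single members under alternatives other than leaving out 1 animal, 324 kept direction and side of the threshold, 49 passed it newly, 2 no longer passed and 10 turned. Leaving out 1 animal, these were 522, 16, 6 and 8. Library size scaling alone moved the P7 median of all genes from -0.08 to -0.28.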
